A study of Homo sapiens with 4 samples.

Results

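Mino and Z138, established human cell lines derived from mantle cell lymphoma, a B cell cancer, were compared with and without knockdown of BTK, the kinase that relays signals from the B cell receptor. The groups were Mino with a doxycycline-inducible short hairpin against BTK, Mino with a control vector (called sc4 in the labels), Z138 with a hairpin against BTK and Z138 with the control vector. All 4 were stable lines with a tet-on vector that had received doxycycline for 48 hours, so the drug was common to hairpin and control, and total RNA was sequenced as 1 library per line and vector. Neither the content of the control vector nor whether a stable line was a clone or a pool is stated in the labels. The genes described are 10 of the 25277 symbols in the table, taken by name as G protein-coupled homing receptors of B cells and RGS regulators: the 7 receptors CXCR4, CXCR5, CCR6, CCR7, S1PR1, GPR183 and GPR18, and the 3 regulators RGS1, RGS2 and RGS13. Of these, 9 had a mean of at least 1 FPKM (fragments scaled for transcript length and library size, so that levels of different genes can be set side by side) over the 4 libraries and entered the test, and CCR6 did not.

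Homing receptors steer B cells between blood, bone marrow and the compartments of lymphoid tissue. Most of them signal through inhibitory G proteins, which guide cell movement towards a ligand gradient. RGS proteins speed the hydrolysis of GTP by the G protein alpha subunit and so shorten the signal of the receptors. In B cells BTK also takes part in signalling downstream of chemokine receptors, CXCR4 among them.

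The pattern among the 10 genes was uneven. RGS1 was at about the same level in both lines and stood at 66.0% of the control FPKM under the BTK hairpin in Mino and at 64.7% of it in Z138. RGS2 stood at 85.2% of control in Mino and at 28.3% in Z138. GPR18 was at 136% of control in Mino and at 130% in Z138, whereas CXCR4, the most abundant of the receptors, was at 99.6% and 100% of control. With 1 library per line and vector, none of the 9 tested genes passed the test across lines with limma, in which 0.122% of the 11484 tested symbols passed (7 higher and 7 lower, or 27 and 15 with equal library medians).

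The target of the hairpin and the identity of the cells were examined before the members. BTK had 9.84 FPKM under the hairpin against 37.0 under the control vector in Mino, and 12.4 against 51.0 FPKM in Z138. It passed the test across lines (mean log2 ratio −1.88, SE 0.13, adjusted p = 0.000964 in limma). All 6 B cell markers examined were above 1 FPKM in every library, and their summed level ran from 984 to 1334 FPKM. SOX11, a transcription factor typical of mantle cell lymphoma, was at 19.8 to 23.6 FPKM, but CCND1, the cyclin gene activated by translocation in most such lymphomas, was at 2.62 and 3.18 FPKM in the Mino hairpin and control libraries against 600 and 591 in those of Z138. Whether the low CCND1 of the cells labelled Mino belongs to that line or sets them apart from their label was not tested, and every comparison of the lines rests on the labels. None of the T cell, NK cell, myeloid, epithelial, fibroblast, endothelial or erythroid markers was above 1 FPKM in every library. The highest values were 7.56 and 7.29 FPKM for EPCAM in the Mino hairpin and control libraries, then 4.55 for COL1A1 in the Mino control. KLRF1, an NK cell marker, was at 3.44 and 2.94 FPKM in the Mino hairpin and control libraries. DCN and HBB, defining markers of fibroblasts and red cells, were listed at 0 in all 4. T cell markers summed to 1.72 to 4.67 FPKM per library. In the Z138 hairpin and control libraries CD3E was at 2.07 and 1.69 FPKM and CD3G at 2.48 and 2.71. CD8A was at 1.38 and 2.01 FPKM in those of Mino. In Mino the epithelial markers summed to 8.05 and 8.36 FPKM in the hairpin and control libraries, in Z138 to 0 and 0.0142, and the part of such cells or transcripts in the Mino values was not tested. The 4 columns summed to 669013 to 740192 FPKM, and read depth is unknown. The Z138 ratios of hairpin over control followed the GC content of the transcript (Spearman rho −0.57 across 10477 genes), which those of Mino hardly did (rho 0.11).

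Levels of the receptors set the lines apart more than the hairpin did. CXCR4, the receptor for CXCL12 that retains B cells in bone marrow, was at 144 FPKM in the Mino hairpin library and 145 in the Mino control, and at 299.5 and 299.7 FPKM in the Z138 hairpin and control libraries. It was the highest of the 10 genes in both lines, above 96.9% to 98.3% of the symbols listed above 0 in a library. CXCR5, the CXCL13 receptor that draws B cells into follicles, was at 80.0 and 77.6 FPKM in the Mino hairpin and control libraries against 3.01 and 2.69 FPKM in those of Z138.

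CCR7, the receptor for CCL19 and CCL21 that leads cells to the T zone, was at 66.5 FPKM in the Mino hairpin library against 92.8 in the Mino control, and at 44.4 and 44.9 FPKM in the Z138 hairpin and control libraries. All Mino values thus lay above all Z138 values, and the gap between the controls of the lines was wider than that between hairpin and control in either line. CCR6, the receptor for CCL20, was listed at 0 in the Mino hairpin library and at 0.0113 FPKM in the Mino control, and was at 0.0629 and 0.0137 FPKM in the Z138 hairpin and control libraries. No fold is given for CCR6, since values of that size may come from very few fragments.

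S1PR1, the sphingosine 1-phosphate receptor through which lymphocytes leave lymphoid tissue, was at 2.05 and 1.99 FPKM in the Mino hairpin and control libraries against 20.7 and 17.4 FPKM in those of Z138. GPR183, the oxysterol receptor that places B cells at the outer follicle, was at 0.320 and 0.766 FPKM in the Mino hairpin and control libraries against 2.73 and 2.44 FPKM in those of Z138. GPR18, a lipid-sensing receptor expressed by lymphocytes, was at 11.3 and 8.30 FPKM in the Mino hairpin and control libraries against 62.5 and 48.1 FPKM in those of Z138. All 3 were lower in both Mino libraries than in either Z138 library.

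The regulators were ordered differently. RGS1, which restrains migration towards chemokines in B cells, was at 10.4 FPKM in the Mino hairpin library against 15.7 in the Mino control, and at 10.2 FPKM in the Z138 hairpin library against 15.7 in the Z138 control. RGS2, which acts mainly on the Gq class of alpha subunits, was at 21.1 FPKM in the Mino hairpin library against 24.7 in the Mino control, and at 1.64 FPKM in the Z138 hairpin library against 5.82 in the Z138 control. RGS13, a regulator found in germinal centre B cells, was at 6.24 and 6.57 FPKM in the Mino hairpin and control libraries against 0.139 and 0.115 FPKM in those of Z138. For RGS1 the split ran by vector, with both hairpin libraries below both controls, while for RGS2 and RGS13 it ran by line.

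**Figure D1:**
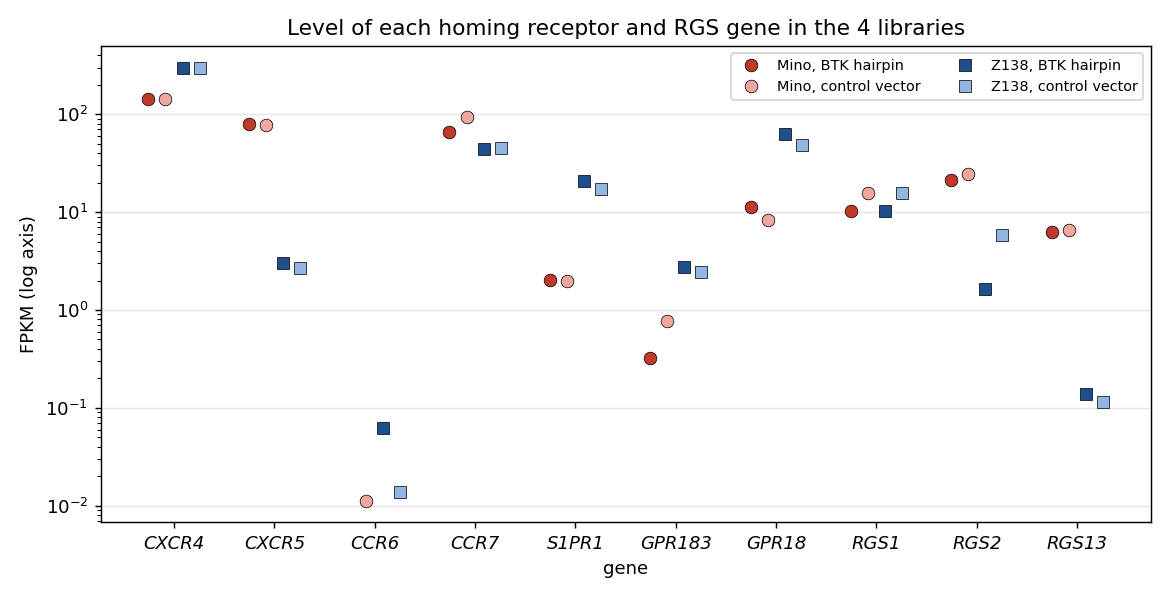
FPKM of each gene (log axis) in the 4 libraries, with circles for Mino, squares for Z138, dark symbols for the BTK hairpin and pale ones for the control vector; CCR6, listed at 0 in the Mino hairpin library, has 3 symbols. CXCR4 lies at the top in both lines, CXCR5 and RGS13 are higher in Mino, S1PR1 and GPR18 are higher in Z138, and the dark symbols of RGS1 lie below the pale ones in both lines.

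The order of the levels within a line followed from these values. In Mino it ran CXCR4, CCR7, CXCR5, RGS2, RGS1, GPR18, RGS13, S1PR1, GPR183 and CCR6 by the mean of both libraries, and the ranges of CCR7 and CXCR5, and those of RGS1 and GPR18, overlapped. Z138 had the order CXCR4, GPR18, CCR7, S1PR1, RGS1, RGS2, CXCR5, GPR183, RGS13 and CCR6, in which the ranges of RGS2, CXCR5 and GPR183 overlapped from each to the next. These ranges hold a hairpin and a control library each, so they are not replicate spreads.

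In the comparison of the lines, made over both vectors on log2(FPKM + 1), 4 members were higher in Mino and 4 higher in Z138 at an adjusted p under 0.05 in limma. Most symbols behaved this way: 38.8% of those tested were called higher in Mino and 28.7% higher in Z138, so a difference between the lines was the common case and 8 of 9 members is read against that share. With equal library medians the balance turned, with 3836 symbols called higher in Mino and 4179 higher in Z138, against 4452 and 3293 as deposited. CXCR5 was 20.7-fold higher in Mino on this scale (log2 difference 4.37, SE 0.13, adjusted p = 1.69e-07 in limma). RGS13 (log2 difference 2.72, SE 0.14), RGS2 (2.49, SE 0.24) and CCR7 (0.80, SE 0.14) were also called higher in Mino. In the other direction S1PR1 had a log2 difference, Mino minus Z138, of −2.73 (SE 0.14), GPR18 of −2.39 (SE 0.12), GPR183 of −1.23 (SE 0.17) and CXCR4 of −1.05 (SE 0.11).

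RGS1 alone of the 9 was not called between the lines, with a log2 difference of 0.016 (SE 0.13, adjusted p = 0.922 in limma), or −0.14 with equal library medians. The difference of RGS13 is a floor-sensitive value, since it was 4.84 with a pseudocount of 0.1 in place of 1, and that of GPR183 was then −2.15. Only 1 culture stood behind each value, and no line had repeat cultures. The error of this test therefore holds library noise and any difference between the lines in the hairpin ratio, which cannot be told apart.

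**Figure D2:**
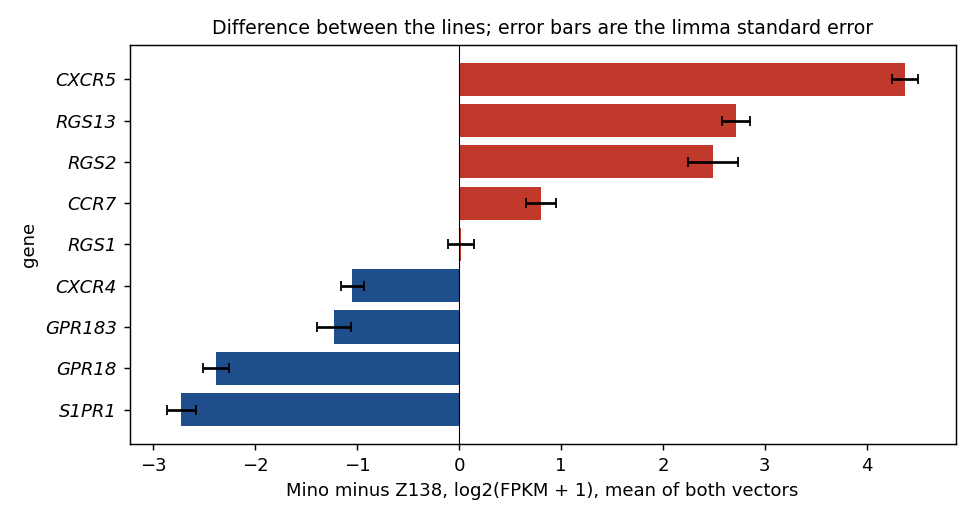
Difference between Mino and Z138 in log2(FPKM + 1), averaged over both vectors, for the 9 tested members; error bars are the limma standard error, red bars are higher in Mino and blue bars higher in Z138. CXCR5 has the longest bar at 4.37 and RGS1 is at 0.016, or −0.14 with equal library medians.

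The hairpin was then set against the control vector in each line. A log2 ratio of −0.25 or lower was found for 3 of the 9 members in Mino (RGS1, CCR7 and GPR183), against 9.55% of all tested symbols, and for 2 in Z138 (RGS2 and RGS1), against 7.94%. Ratios of 0.25 or higher were found for 1 member in each line, GPR18 both times, against 8.12% of tested symbols in Mino and 11.3% in Z138. Past that size in the same direction in both lines were RGS1 on the lower side, against 0.993% of tested symbols, and, before any GC and length correction, GPR18 on the higher side, against 0.697%. The median log2 ratio of the 9 members was −0.06 in Mino and 0.03 in Z138, beside −0.01 and 0.03 over all tested symbols. None of the 9 passed in limma, 3 of them (RGS1, RGS2 and GPR18) had an unadjusted p under 0.05, and over all genes 320 of 11484 had one.

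For RGS1 the log2 ratio was −0.56 in Mino and −0.58 in Z138, with a mean of −0.57 (SE 0.13, 95% interval −0.87 to −0.27 before any adjustment for the number of genes, adjusted p = 0.661 by limma, below control in 2 of 2 lines). Counting RGS1 itself, 12 of the 11484 tested symbols had ratios at least as low as its own in both lines. After removal of the GC and length trends its ratios were −0.57 in Mino and −0.73 in Z138, and its adjusted p was 0.466 in limma. Across 9 settings its adjusted p by limma ran from 0.0891 to 1.00.

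For RGS2 it was −0.22 in Mino and −1.37 in Z138, with a mean of −0.79 (SE 0.24, 95% interval −1.36 to −0.23 before adjustment, adjusted p = 1.00 by limma, below control in 2 of 2 lines). The mean therefore rests on Z138, where 0.305% of tested symbols had a ratio as low, while in Mino 11.9% had one as low as its ratio there. In plain FPKM the Z138 control was 3.54-fold above the Z138 hairpin library. With a pseudocount of 0.1 the Z138 ratio was −1.76, and the adjusted p ran from 0.0891 to 1.00 across alternatives. Whether the lines differed in their RGS2 response was not tested, since each line gave a single ratio.

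RGS13 was close to control, with −0.065 in Mino and 0.030 in Z138 on the log2 scale (mean −0.02, SE 0.14, adjusted p = 1.00 in limma). RGS1, RGS13 and RGS2 are consecutive protein-coding genes on chromosome 1 in the RefSeq annotation, preceded by RGS21 and RGS18, which were listed at 0 in all 4 libraries. Within this run of related genes, RGS1 and RGS2 were thus below control in both lines, and RGS13, which lies between them, had ratios on either side of 0. After removal of the GC and length trends RGS13 had −0.036 in Mino and −0.16 in Z138, so all 3 RGS members were then below 0 in both lines. RGS21 and RGS18 gave no ratio.

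The bases before the start of these 3 genes and of GPR18 are shown because RGS1, RGS2 and GPR18 are the members furthest from control on average and RGS13 is the gene between the first pair. Each run is the 250 bases upstream of the RefSeq transcript start (build GRCh38.p14), 5′ to 3′ on the gene's strand, and capitals mark matches to the motifs searched. RGS1 lies on the plus strand at chr1:192575523-192575772, RGS13 on the plus strand at chr1:192635897-192636146, RGS2 on the plus strand at chr1:192808789-192809038, and GPR18 on the minus strand at chr13:99258380-99258629.
RGS1: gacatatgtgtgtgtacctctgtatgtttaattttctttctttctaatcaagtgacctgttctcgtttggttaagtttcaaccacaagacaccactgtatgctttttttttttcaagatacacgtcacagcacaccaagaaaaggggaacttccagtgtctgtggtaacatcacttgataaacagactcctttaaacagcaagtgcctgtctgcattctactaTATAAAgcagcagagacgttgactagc
RGS13: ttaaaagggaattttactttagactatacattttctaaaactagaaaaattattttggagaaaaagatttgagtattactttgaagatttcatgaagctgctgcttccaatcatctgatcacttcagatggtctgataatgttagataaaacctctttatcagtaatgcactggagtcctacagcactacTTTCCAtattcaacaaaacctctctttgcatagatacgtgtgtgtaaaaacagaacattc
RGS2: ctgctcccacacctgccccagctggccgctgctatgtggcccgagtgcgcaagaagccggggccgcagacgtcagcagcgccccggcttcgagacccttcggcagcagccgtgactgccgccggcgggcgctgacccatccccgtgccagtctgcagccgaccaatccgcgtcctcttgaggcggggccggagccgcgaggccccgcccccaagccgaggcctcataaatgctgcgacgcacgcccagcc
GPR18: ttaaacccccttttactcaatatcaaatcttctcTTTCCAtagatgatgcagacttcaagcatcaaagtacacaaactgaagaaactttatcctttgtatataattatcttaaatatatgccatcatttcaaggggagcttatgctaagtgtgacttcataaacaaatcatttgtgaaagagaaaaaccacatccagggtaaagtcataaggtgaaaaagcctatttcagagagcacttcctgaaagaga

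The windows differ in base composition: 39.2% of bases are G or C in RGS1, 32% in RGS13 and 34% in GPR18, against 72.8% in RGS2. Searched on both strands were the NF-kB consensus with A or T at the sixth base, AP-1 (TGANTCA), FOXO (GTAAACA), a core of the NFAT site (TGGAAA) and a TATA box (TATAAA), chosen because receptor signalling acts on the first 4 factors. RGS1 holds the TATA box at positions −27 to −22 from the start. The same motif, at any position and on either strand, is in 10.7% of all 35116 windows. The core TGGAAA is present on the opposite strand, read as TTTCCA, in RGS13 and in GPR18, as in 18.0% of windows, and the RGS2 window holds none of these 5 motifs. The NF-kB consensus, present in 5.21% of windows, was in no window of the 9 members that had one, nor was AP-1 (6.57% of windows) or FOXO (2.98%). A wider NF-kB form with any base at the sixth position, searched after the windows had been seen and left in lower case, was in RGS1 at −106 to −97 and in S1PR1, and in 9.96% of all windows.

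GPR18 was the single member above control in both lines by 0.25 or more on the deposited scale, a count that the GC and length correction ends. Its log2 ratios were 0.40 in Mino and 0.37 in Z138, with a mean of 0.38 (SE 0.12, 95% interval 0.10 to 0.67 before adjustment, adjusted p = 1.00 by limma, above control in 2 of 2 lines). Counting GPR18 itself, 37 tested symbols had ratios at least as high in both lines. Its transcript has 40.3% G or C, below the median of 48.6% over the genes compared, and after removal of the GC and length trends the ratio was 0.42 in Mino and 0.245 in Z138, just under 0.25, so GPR18 was then past that size in Mino only. GPR18 and GPR183 both lie inside the gene UBAC2 on its opposite strand, with no exon base in common in GENCODE release 29. UBAC2 was at 40.3 FPKM in the Mino hairpin library against 31.3 in the Mino control, and at 71.8 FPKM in the Z138 hairpin library against 68.8 in the Z138 control. TM9SF2, the next gene after GPR183, was at 30.1 and 24.8 FPKM in the Mino hairpin and control libraries and at 70.5 and 62.3 in those of Z138. The labels do not say whether strand was used in counting, and the part of UBAC2 reads in the GPR18 values was not tested.

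The other receptors were near control in at least 1 line. CCR7 had log2 ratios of −0.47 in Mino, a value that 2.16% of tested symbols reached, and −0.02 in Z138, with a mean of −0.25 (SE 0.14, adjusted p = 1.00 in limma). GPR183 had −0.42 in Mino and 0.12 in Z138, from low levels: with a pseudocount of 0.1 the Mino ratio was −1.05. S1PR1 had 0.027 in Mino and 0.24 in Z138, and CXCR5 had 0.043 in Mino and 0.12 in Z138.

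CXCR4 gave −0.0063 in Mino and −0.00060 in Z138, with a mean of −0.0035 and a 95% interval of −0.27 to 0.26, which still holds changes of that size in either direction. For CXCR5 the interval was −0.21 to 0.38, for S1PR1 −0.19 to 0.46 and for CCR7 −0.58 to 0.09. Of the exon bases of CXCR5 in GENCODE release 29, 88.6% also belong to exons of BCL9L on the opposite strand. BCL9L was at 4.94 and 5.70 FPKM in the Mino hairpin and control libraries and at 2.07 and 1.89 in those of Z138, so without strand the low CXCR5 values of Z138 cannot be told apart from reads of BCL9L.

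**Figure D3:**
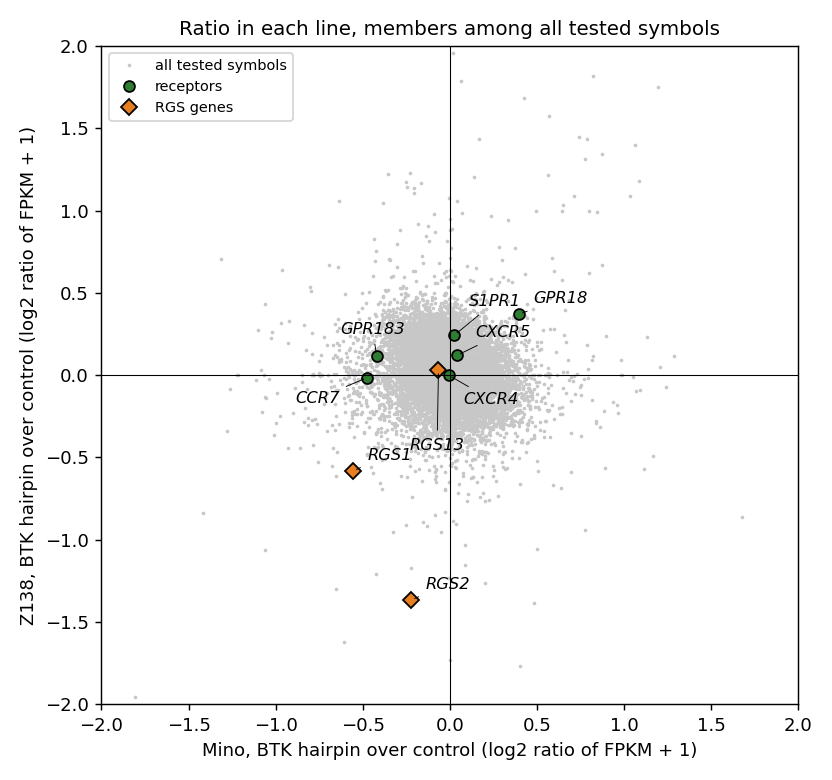
Log2 ratio of FPKM + 1, BTK hairpin over control, in Mino (horizontal) and Z138 (vertical) for the 9 tested members (green circles, receptors; orange diamonds, RGS genes) over all tested symbols (grey), of which 69 lie outside the plotted range. RGS1 stands at −0.56 and −0.58 and RGS2 at −0.22 and −1.37 on the lower side, and GPR18 at 0.40 and 0.37 on the upper right.

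**Figure D4:**
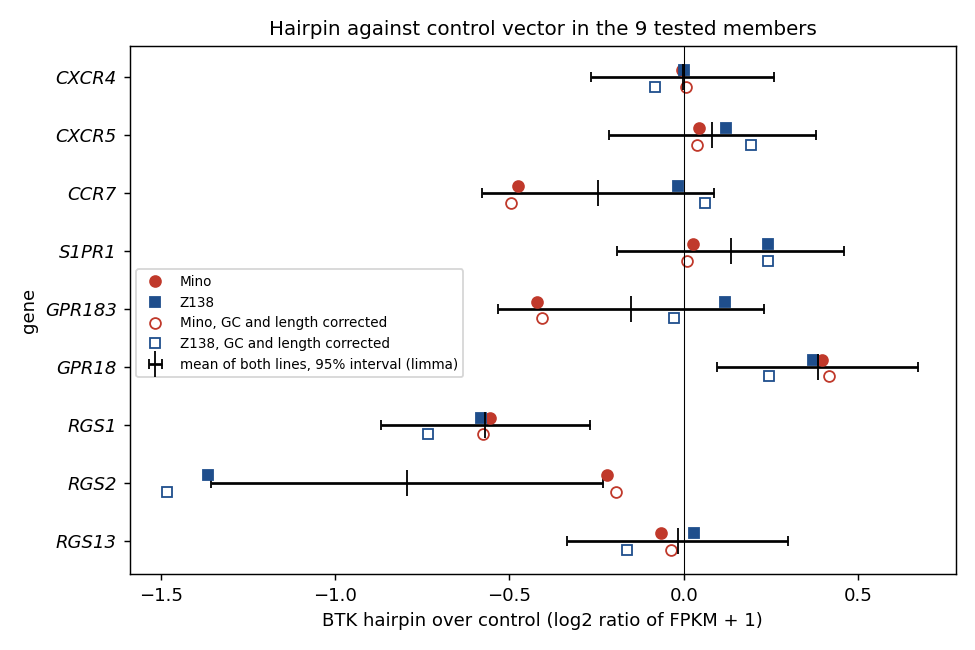
Log2 ratio of FPKM + 1, BTK hairpin over control, for each tested member: filled symbols are the ratios of Mino (red circles) and Z138 (blue squares), open symbols the same after removal of the GC and length trends, and black bars the mean of both lines with its 95% interval from limma, not adjusted for the number of genes. The intervals of RGS1, RGS2 and GPR18 lie to 1 side of 0, and the Z138 ratio of GPR18 moves to 0.245 with the correction.

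The profile of RGS1 over the 4 libraries, centred on its mean log2(FPKM + 1), was closest to those of ENC1, LGALS1, ENO1, PARP15 and CYSTM1 among 8170 other symbols that averaged 5 FPKM or more. Their Euclidean distances from RGS1 ran from 0.20 to 0.30 over these 4 values. ENC1, the nearest, was at 5.47 FPKM in the Mino hairpin library against 7.49 in the Mino control, and at 5.73 FPKM in the Z138 hairpin library against 7.69 in the Z138 control.

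Other genes of the pathway were described from 7 lists. Of the ligands and the enzymes that make or break them, 5 of 13 were tested, and all 5 act on sphingosine 1-phosphate. The chemokines CXCL12 and CCL20 and the oxysterol enzymes CH25H and CYP7B1 were listed at 0 in every library, and CXCL13, CCL19 and CCL21 were under 0.1 FPKM in each. HSD3B7, also an oxysterol enzyme, was at 0.871 and 1.32 FPKM in the Mino hairpin and control libraries. In those of Z138 it was at 0.666 and 0.852 FPKM, and it did not enter the test. None of the 5 tested genes passed in limma, and their median log2 ratios were 0.18 in Mino and 0.06 in Z138.

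Of 35 other homing and lipid receptors, 11 were tested and 0 passed in limma, with medians of 0.08 in Mino and −0.03 in Z138. Some are named here after their values were seen. P2RY10, a receptor for lysophospholipids, was at 10.4 FPKM in the Mino hairpin library against 16.6 in the Mino control, and at 3.21 FPKM in the Z138 hairpin library against 3.29 in the Z138 control. S1PR4, a further sphingosine 1-phosphate receptor, was at 2.19 and 1.90 FPKM in the Mino hairpin and control libraries and at 9.09 and 6.34 in those of Z138. Neither passed (adjusted p = 1.00 for both in limma).

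Among 18 other RGS genes, 6 were tested and 0 passed, with medians of −0.04 in Mino and 0.12 in Z138. RGS10, the highest of the 6 in Mino and likewise chosen after its values were seen, was at 140.3 FPKM in the Mino hairpin library against 169 in the Mino control, and at 28.5 FPKM in the Z138 hairpin library against 25.2 in the Z138 control. RGS16 was at 5.23 and 4.92 FPKM in the Mino hairpin and control libraries and at 33.4 and 25.7 in those of Z138. In Z138, where RGS1 and RGS2 were furthest below control, RGS10 and RGS16 had log2 ratios of 0.17 and 0.36. RGS3 and RGS14 had 0.52 and 0.08 there, and RGS12 and RGS19 were slightly below control at −0.04 and −0.06. After removal of the GC and length trends all 6 were above 0 in Z138. In Mino the uncorrected ratios of RGS3, RGS10 and RGS12 were below 0, at −0.37, −0.27 and −0.16. Those of RGS14, RGS16 and RGS19 were above 0 in Mino, at 0.10, 0.07 and 0.19.

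In the signalling machinery below the receptors, 0 genes passed in limma. GNA15, an alpha subunit of the Gq class, and RASGRP3 had an unadjusted p under 0.05 in it, as 320 of all 11484 tested symbols did. GNA15 was at 1.26 FPKM in the Mino hairpin library against 3.48 in the Mino control. In the Z138 hairpin and control libraries it was at 0 and 0.0796 FPKM, so its mean ratio rests on Mino. Among heterotrimeric G protein subunits 21 of 30 were tested, with medians of −0.10 in Mino and −0.02 in Z138. Of receptor kinases and arrestins, which switch receptors off, 5 of 9 were tested, with medians of −0.05 and −0.02. Of chemotaxis effectors 29 of 31 were tested, and their signs differed by line: 24 of 29 were below 0 in Mino, where 5964 of 11484 tested symbols were, and 24 of 29 were above 0 in Z138, where 6354 were. Their medians were −0.16 in Mino and 0.09 in Z138, and −0.11 and 0.11 after removal of the GC and length trends. By the rule for naming genes only RASGRP3, an exchange factor for Ras family GTPases downstream of the B cell receptor, was past 0.25 in both lines, at 29.2 FPKM in the Mino hairpin library against 37.7 in the Mino control and at 11.3 FPKM in the Z138 hairpin library against 15.1 in the Z138 control. Its mean log2 ratio was −0.37 (SE 0.13, adjusted p = 1.00 in limma).

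Genes that set receptor transcription or surface level were all 10 tested and 0 passed, with medians of −0.05 in Mino and 0.05 in Z138. KLF2, a transcription factor that drives S1PR1 in T cells, was chosen after its values were seen. It was at 7.53 and 8.70 FPKM in the Mino hairpin and control libraries against 44.3 and 44.8 FPKM in those of Z138, a log2 difference, Mino minus Z138, of −2.33 (SE 0.13). Of the 10 genes, 4 were called higher in Mino (KLF3, FOXO1, FOXP1 and CD69), against 38.8% of all tested symbols. Called higher in Z138 were 2 (KLF2 and HGS), against 28.7%, so these counts are not particular to the list. CD69, which binds S1PR1 and removes it from the cell surface, was likewise chosen after its values were seen. It was at 9.02 and 10.2 FPKM in the Mino hairpin and control libraries and at 5.48 and 4.77 in those of Z138. All these values are of RNA, and the part of KLF2 or CD69 in the level of S1PR1 was not tested.

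**Figure D5:**
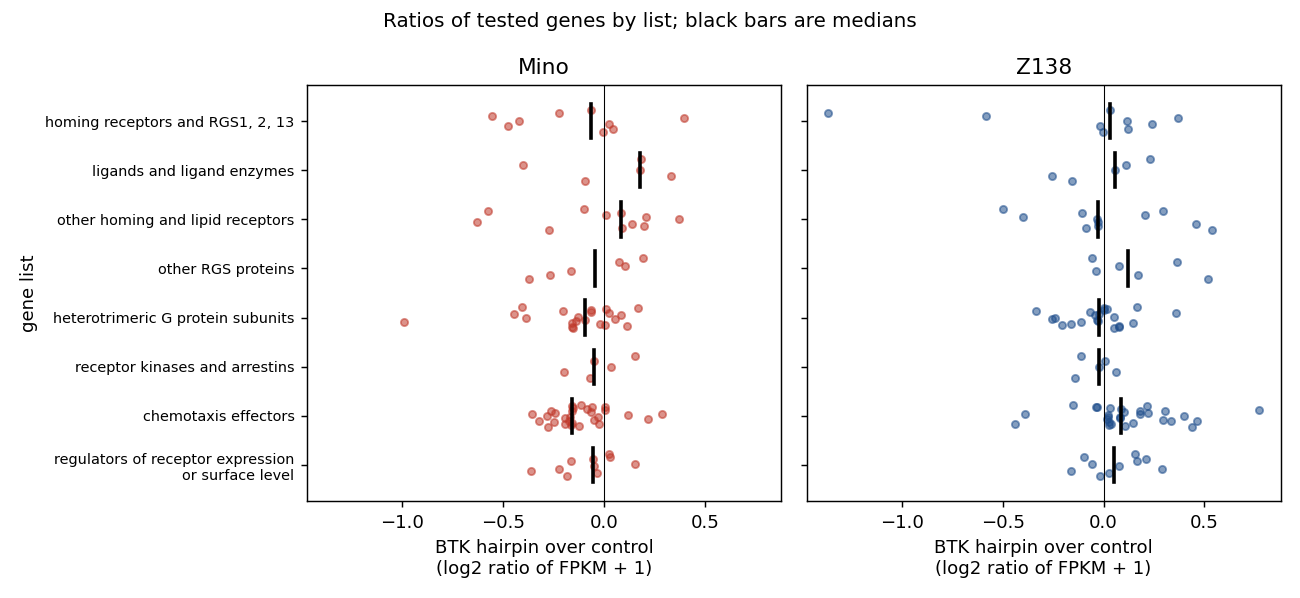
Log2 ratio of FPKM + 1, BTK hairpin over control, of each tested gene in the members and the 7 pathway lists (rows) in Mino and in Z138 (panels); dots are genes and black bars medians. The chemotaxis effectors lie mostly below 0 in Mino and above 0 in Z138, and the lowest points of the members in Z138 are RGS2 and RGS1.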

How the data were processed

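Per the labels' protocols, total RNA came from a Qiagen column kit and libraries from a TruSeq RNA kit of Illumina. The authors deposited FPKM values, 1 column per library, per the file headers. The submitters' processing notes name TopHat, with no version, and hg19; what program and annotation gave FPKM, and whether it used strand, is not stated there. The members and gene lists were chosen with earlier results of these data known.

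Values were analysed as log2(FPKM + 1), which understates the change of low genes, for the 11484 symbols that averaged 1 FPKM or more over the 4 libraries. limma 3.58.1 in R 4.3.3 fitted cell line and hairpin as additive terms with a mean-variance trend, leaving 1 residual degree of freedom per gene. P-values were adjusted by Benjamini-Hochberg over all tested symbols. P-values and intervals for the hairpin rest on 2 lines. Their error is moderated by limma, with 6.885 prior degrees of freedom drawn from all tested symbols beside the 1 residual. They thus measure mostly a spread shared across genes between these libraries, which may be technical, and little of a gene's own spread. Within a line values are given with no test. The script was tested on simulated data with noise drawn from the fitted limma prior. That simulation held no GC trend, so it does not cover the trend seen in Z138.

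Low values were searched for steps of whole reads: no ratio between the Mino control and another library was shared, within 0.05 on the log2 scale, by more than 20.1% of symbols at or under 0.1 FPKM, so whole reads were not recovered and no counting interval is given. GC content and length were those of the longest GENCODE release 29 transcript (GRCh38), found for 93.9% of tested symbols, and were removed as spline trends per line in 1 alternative. Named beside the members are list genes that passed, up to 3 per list past a log2 ratio of 0.25 in the same direction in both lines, the genes next to or overlapping RGS1, GPR183 and GPR18, and the 5 profiles nearest to RGS1; other names were chosen after values were seen. Promoter bases are from RefSeq (9 of 10 members matched).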

Additional observations from a re-analysis of the deposited data

Results flagged for a closer look

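GPR183 and RGS13 had uncorrected ratios of opposite sign in the lines, from 1 pair of libraries each, and the difference was not tested. For GPR183 the log2 ratio was −0.42 in Mino and 0.12 in Z138, where after removal of the GC and length trends it was −0.03. RGS13 had −0.065 in Mino and 0.030 in Z138, a line in which it was at 0.139 and 0.115 FPKM in the hairpin and control libraries. After the same correction RGS13 had −0.036 in Mino and −0.16 in Z138, so neither gene then had opposite signs (GPR183 had −0.41 in Mino).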

How the results depend on the processing

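The number of symbols called for the hairpin depended on the setting, while 0 of the 9 tested members passed in limma under any setting tried (7 members at a mean of at least 5 FPKM), with 2 to 3 of them at an unadjusted p under 0.05 where the line term was kept. As reported, 14 symbols passed (7 higher, 7 lower). There were 42 (27 higher, 15 lower) with equal library medians, 28 among symbols above 0 in all 4 libraries, 9 at a mean of at least 5 FPKM, 7 after the GC and length correction, 2 with no filter on low values and 0 without the line term, where 9 had an unadjusted p under 0.05. Equal medians removed library shifts of 0.07 and 0.08 (Mino hairpin and control) and of −0.06 and −0.10 (Z138 hairpin and control) on the log2 scale; RGS1 then had a log2 difference, Mino minus Z138, of −0.14 (adjusted p = 0.376 in limma) in place of 0.016. With a pseudocount of 0.1 the mean log2 hairpin ratio of RGS13 was 0.039 in place of −0.017. Taken from each line's pair alone, the hairpin ratio of GPR183 ran from −0.42 to 0.12 and that of RGS13 from −0.065 to 0.030. The other 136 single-gene values kept their direction. Those that came with a test also kept their side of the threshold, whereas ratios from 1 line's pair alone had no test. The causes of these shifts were not tested. Without known depth, differences in genes under 1 FPKM, CCR6 and GPR183 in Mino among them, could not be judged. The line is a term of the fit and pairs the libraries, which carry no replicate numbers in the labels.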
